A study of Xenopus tropicalis with 18 samples.

Results

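Binding of thyroid hormone receptor (TR) with T3 was compared with binding in the untreated state in the wild-type intestine of Xenopus tropicalis tadpoles. The comparison uses 6 of the 18 chromatin immunoprecipitation and sequencing libraries of the series, 3 with T3 and 3 untreated, chosen by their genotype and treatment labels. All 9867 regions of the count table were included. Wild-type tadpoles at stage 54 received 10 nM of the hormone T3 for 18 h, and untreated wild-type tadpoles of the same stage served as controls. The other 12 libraries come from TRαKO and TRβKO tadpoles (TRαLKO in the series text for the first), each with the same T3 treatment or untreated, 3 libraries a group. An antibody against TR was used, and the labels do not say which receptor forms it recognises. No input or mock library was used here. Replicates are described as biological and from different tadpoles, with no statement of pooling or shared clutches. A binding profile holds no expression of marker genes, so the labelled tissue was not checked, and whole intestine mixes cell types whose shares cannot be told apart from binding per cell.

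Thyroid hormone receptors are nuclear receptors that sit on DNA as partners of retinoid X receptors. Without hormone they recruit corepressor complexes, and T3 exchanges these for coactivators. In the tadpole gut, T3 drives metamorphosis, in which larval epithelium dies and adult stem cells build a new epithelium. The genes of the receptors themselves, thibz and klf9 are long known as direct targets in tadpole tissues.

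T3 libraries were far shallower than untreated ones. They held 2.29 to 2.53 M tags after the duplicate filter, against 12.4 to 17.1 M tags in untreated libraries. The share of redundant tags was 21.4% to 22.4% with T3 and 2.2% to 2.97% untreated, and the fragment length estimated by the peak caller was 297 to 298 bp and 255 to 283 bp. Replicate libraries varied 2.19 times as much as counting error with T3 and 2.0 times untreated. The part of depth and redundancy in the results was not tested, apart from the alternatives given at the end. Levels are given as CPM, reads in a region per 1 M tags kept in the library. A region is called where its adjusted p is under 0.05.

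T3 changed TR signal at 11.3% of the 9342 regions tested, higher at 956 (10.2%) and lower at 101 (1.08%) (edgeR quasi-likelihood test over all 18 libraries, Benjamini-Hochberg adjustment). Falls were harder to call than rises. Counts were simulated at these library sizes with 200 regions changed. Of 50 regions set 4-fold higher 70% were called, against 6% of 50 set 4-fold lower. The numbers higher and lower are therefore not on equal terms. Fewer regions were changed in the simulation than were called here, so the shares themselves need not hold for these data. The remaining 525 regions had too few reads for a test, with a median of 6 reads with T3 and 58 untreated over the 3 libraries. Of the regions that rose, 861 changed by over 2 on the log2 scale, 632 by over 3 and 199 by over 4. Their median level was 9.26 CPM with T3 and 0.961 CPM untreated, and per kb of region 19.3 and 1.94 CPM. Over all tested regions the median was 1.90 CPM with T3 and 1.80 CPM untreated, and the median log2 change was 0.02. At 935 of the 956 regions the lowest T3 library exceeded the highest untreated one, an order found at 14.7% of all tested regions. The median untreated level of the regions that rose was thus below that of all tested regions. This order follows in part from selection, since a call for a rise favours low untreated values and the regions were formed from peaks. No untreated wild-type library had a peak at 864 of the 956, and at 2283 of all 9342 tested regions. A peak in 2 or more of these libraries was found at 4.50% of the 956 and 49.0% of all tested regions. Among scalings, all tags before the duplicate filter gave 902 regions higher and 284 lower, DESeq2 gave 904 and 254, and reads in counted regions gave 880 and 619. These shifted the median log2 change of all regions to -0.31, -0.37 and -0.52.

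**Figure D1:**
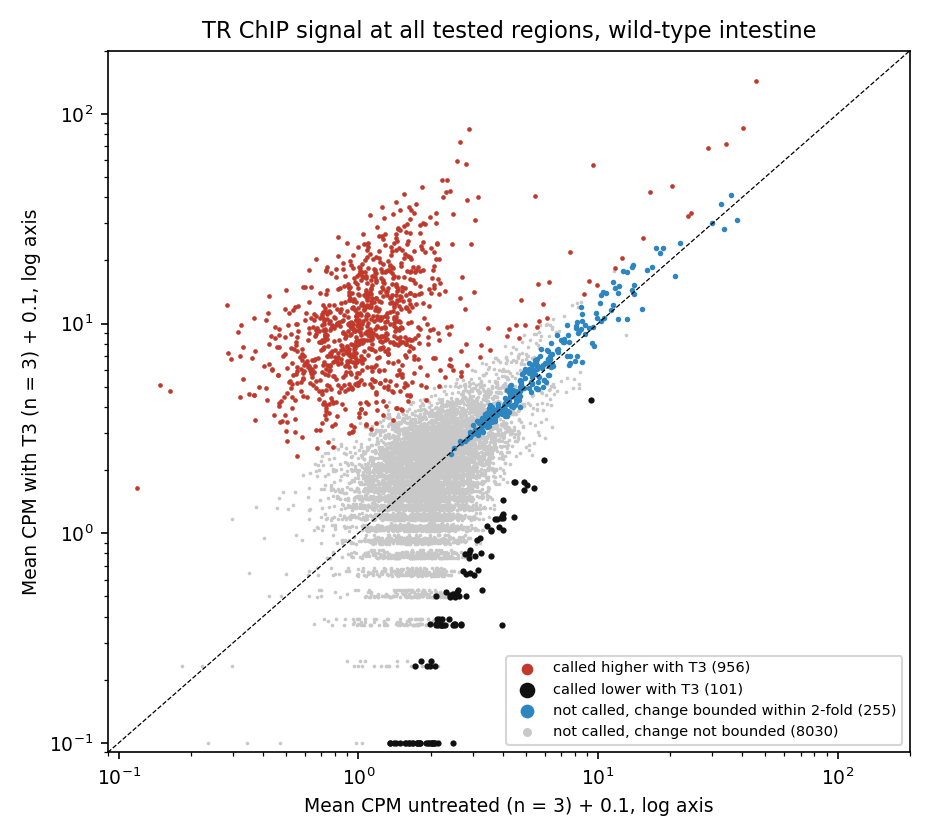
Mean CPM with T3 (vertical) against mean CPM untreated (horizontal) for each of the 9342 tested regions, both on log axes after adding 0.1, with equality dashed. Most of the 956 regions called higher lie far above the line, 861 with a log2 change over 2, but the smallest log2 change was 0.453. They lie mostly at 0.679 to 1.34 CPM untreated (their middle quartiles). The 101 called lower reach down to no reads with T3. The 255 regions bounded within 2-fold follow the line at untreated levels of mostly 3.60 to 6.96 CPM (their middle quartiles).

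The regions that rose took a large part of all reads in counted regions. They held 38.5%, 39.6% and 39.2% of those reads in the 3 T3 libraries, against 6.66% to 6.89% in the untreated libraries. Regions that fell held 0.148% to 0.188% with T3 and 1.29% to 1.41% untreated. Counted regions as a whole took 2.90 ± 0.0620 reads per 100 tags with T3 and 1.98 ± 0.0396 untreated (SD, n = 3 each), with no overlap between groups. An exact two-sided permutation test gave p = 0.1, the smallest value possible with 3 against 3. Per 100 tags before the duplicate filter the difference shrank to 0.332, from 0.912 after it.

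Regions that rose lay nearer to genes than the tested regions did as a whole. A gene body held 61.2% of them, against 53.7% of all tested regions, and 20.7% lay within 1000 bp of a gene end, against 11.6%. More than 10 kb from any gene lay 18.1% of them, against 28.7%. These shares are descriptions, and the gene positions come from a table that may differ from the build of the files, which is not named in the sources used here. Genes with only a LOC number were left out of the count by gene. Of the 3235 others with a tested region, 597 carried at least 1 that rose and 58 at least 1 that fell.

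At thra, the gene of TRα, all 4 counted regions rose with T3. The strongest, in the gene body on chromosome 10 at 9096138 to 9097271, had 46.6, 49.0 and 49.0 CPM with T3 and 1.83, 1.81 and 2.75 CPM untreated. Its log2 change was 4.51 ± 0.20 (SE; edgeR, adjusted p = 2.53e-34). A second region, at 9098324, had 18.5, 21.3 and 14.9 CPM with T3 and 0.878, 0.701 and 0.971 CPM untreated. The weaker pair averaged 7.64 ± 2.44 and 9.04 ± 4.80 CPM with T3, and 0.366 ± 0.191 and 0.764 ± 0.160 CPM untreated. In none of the 4 did a T3 library overlap an untreated one, and no untreated library had a peak at any of them.

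All 3 counted regions of thrb, the gene of TRβ and a receptor gene that T3 induces, rose too. The strongest lay on chromosome 6 at 46932899 to 46933467, with 41.0, 39.9 and 39.8 CPM with T3 and 2.78, 2.28 and 1.38 CPM untreated. The T3 libraries had an SD of 0.628 CPM there, and the groups did not overlap. The region at 46899379 averaged 13.7 ± 0.694 CPM with T3 and 0.987 ± 0.410 untreated, and the one at 46698245 averaged 15.5 ± 2.98 and 2.1 ± 0.583. The retinoid X receptor gene rxra, whose product pairs with TR, had 3 tested regions and none was called, with log2 changes of -0.08 to -1.01. Receptor genes as a list thus had 7 of 10 regions higher and none lower, all at thra and thrb.

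The strongest region of thibz, which codes for a leucine-zipper transcription factor, lay in the gene body on chromosome 3 at 140193300 to 140193863. It had 53.0, 58.9 and 59.9 CPM with T3 and 3.22, 2.57 and 2.35 CPM untreated, a log2 change of 4.39 ± 0.19 (SE; edgeR, adjusted p = 1.26e-35). Every T3 library lay far above every untreated one. It was also a peak in all 6 libraries, and the authors' fold enrichment over the local background of the same library was 21.5, 21.9 and 19.1 with T3, against 6.27, 5.54 and 4.97 untreated. Per kb this region had 102 CPM with T3, against 42.5 at the wider thra region, so the order of the pair in CPM follows their order per kb.

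At dot1l, a histone H3K79 methyltransferase gene, the region on chromosome 1 at 102709807 to 102710470 had 38.1, 36.4 and 32.8 CPM with T3 and 0.731, 1.34 and 1.38 CPM untreated. The groups stood far apart, and the log2 change was 4.93 ± 0.26 (SE; edgeR, adjusted p = 6.77e-31). The klf9 gene, which codes for a Krüppel-like factor, had weaker regions. The one beside the gene, on chromosome 1 at 129859818 to 129860416, had 13.7, 9.49 and 12.2 CPM with T3 and 1.83, 1.23 and 1.38 CPM untreated. The one in the gene body, at 129851578, spread more widely with T3 (5.22, 7.12 and 1.75 CPM), yet its lowest T3 library still lay above the highest untreated one at 0.818 CPM. Neither T3 nor untreated libraries had a peak at that gene-body region.

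**Figure D2:**
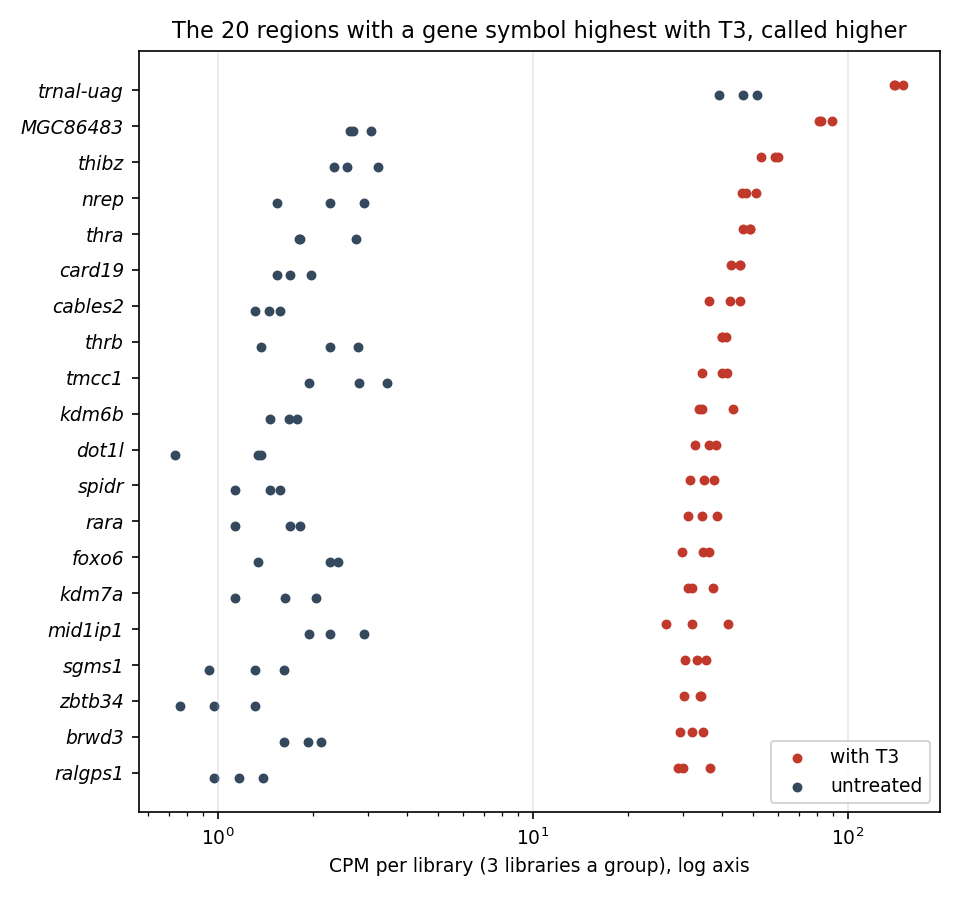
CPM in each library (horizontal, log axis) at the 20 regions with the highest mean CPM with T3 among those with a gene symbol that were called higher without overlap, each labelled by its gene, with T3 points above untreated points. In every row the 3 T3 libraries lie above the 3 untreated ones; the trnal-uag region stands apart by its untreated level of 45.7 CPM, since the other 19 have untreated means of 1.02 to 2.80 CPM.

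Beside dot1l, 3 chromatin regulator genes held regions among the 20 risers with a gene symbol and the highest CPM with T3. At kdm6b, a histone H3K27 demethylase gene, 3 of 5 regions rose. The strongest, on chromosome 3 at 147034252, had 34.5, 43.1 and 33.7 CPM with T3 and 1.68, 1.46 and 1.78 CPM untreated. The uncalled pair upstream in coordinates had 1.37 ± 0.215 and 1.25 ± 0.481 CPM with T3, and 2.13 ± 0.472 and 2.78 ± 0.394 CPM untreated, so regions of 1 gene did not move alike. The histone demethylase gene kdm7a had a region 8537 bp from the gene with 37.3, 32.0 and 31.1 CPM with T3 and 2.05, 1.64 and 1.13 CPM untreated. At brwd3, a bromodomain protein gene, the values were 32.1, 34.8 and 29.3 CPM with T3 and 2.12, 1.93 and 1.62 CPM untreated. T3 and untreated libraries did not overlap at the strongest kdm6b region or at those of kdm7a and brwd3, as the rule that chose these regions required.

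Other transcription factor genes with strong regions were rara, foxo6 and zbtb34. The retinoic acid receptor gene rara had 34.5, 38.3 and 31.1 CPM with T3 and 1.83, 1.69 and 1.13 CPM untreated in its strongest region, on chromosome 10 at 8790066. All 3 regions of foxo6, a forkhead factor gene, rose, and the strongest averaged 33.6 ± 3.46 CPM with T3 and 2.01 ± 0.580 untreated. The zinc finger gene zbtb34 lay 5801 bp from a region with 32.7 ± 2.28 CPM with T3 and 1.02 ± 0.281 untreated. That was a log2 change of 5.0 ± 0.28 (SE; edgeR, adjusted p = 8.58e-30), with the lowest untreated mean of the 20 regions in the plot of risers by library.

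Genes of quite different roles held the remaining strong regions. The region 4504 bp from MGC86483, on chromosome 5 at 5402339 to 5403067, reached 82.3, 81.0 and 89.2 CPM with T3 against 2.63, 2.69 and 3.08 CPM untreated. Per kb it had 115 CPM with T3, second only to trnal-uag at 152 among the regions named here. At card19, a gene of a protein with a caspase recruitment domain, levels were 42.6, 45.5 and 45.5 CPM with T3 and 1.97, 1.69 and 1.54 CPM untreated. The region 5 bp from nrep had 48.3 ± 2.61 CPM with T3 and 2.24 ± 0.692 untreated, cables2 41.3 ± 4.62 and 1.45 ± 0.131, and tmcc1 38.5 ± 3.66 and 2.73 ± 0.750. Sphingomyelin synthase gene sgms1 had 33.1 ± 2.51 and 1.29 ± 0.343 CPM. The region near mid1ip1, whose product takes part in fatty acid synthesis, spread most among T3 libraries, at 26.5, 32.0 and 41.6 CPM, and had 2.38 ± 0.499 CPM untreated. At ralgps1, a Ral exchange factor gene, the means were 31.8 ± 4.13 CPM with T3 and 1.18 ± 0.209 CPM untreated.

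A region over the leucine tRNA gene trnal-uag, on chromosome 6 at 130885753 to 130886697, had the highest CPM of all tested regions in both states. It had 140, 141 and 150 CPM with T3 and 46.6, 38.9 and 51.6 CPM untreated, a log2 change of 1.65 ± 0.10 (SE; edgeR, adjusted p = 1.33e-26). The authors' fold enrichment did not part the groups in the same way, at 14, 14.1 and 15.2 with T3 and 14.7, 14.5 and 14.2 untreated. Transfer RNA genes have near-identical copies, and how the counting treated reads that match several copies is not given in the sources used here, so this value is uncertain. The region held 348, 356 and 343 reads in T3 libraries of 2.29 to 2.53 M tags. It held 637, 666 and 637 reads in untreated libraries of 12.4 to 17.1 M tags. The part of depth in its change in CPM was not tested.

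Some regions that rose stood close together. Within 10 kb of another riser lay 12.2% of the 948 on chromosomes, and within 50 kb 27.4%, given as a description without a comparison. The longest runs, chosen after their values were seen, joined risers less than 50 kb apart. At klf9, 7 of 7 tested regions across 80.1 kb rose and summed to 64.6 CPM with T3 and 6.24 CPM untreated. The highest of these, at 129885055, lay outside the 10 kb window of the gene and had 12, 15.4 and 15.7 CPM with T3 and 0.804, 0.701 and 0.405 CPM untreated. Its T3 and untreated libraries did not overlap. Around thibz 4 of 4 regions within 17.7 kb summed to 121 CPM with T3 and 6.91 CPM untreated, and 1 of them, at 140180016, had 37.3, 33.6 and 42.4 CPM with T3 and 1.32, 0.993 and 1.70 CPM untreated although it lay over 10 kb from any gene. The groups stood far apart there too.

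Further runs lay across long genes or gene pairs. Over rbks and babam2, the second a subunit gene of a BRCA1-associated complex, 7 of 9 regions rose within 119 kb. The calls at 5527275 in rbks and at 5558148 in babam2 were lost without 3 and 2 of the 6 libraries. The strongest babam2 region had 30.1, 31.2 and 28.9 CPM with T3 and 2.12, 1.40 and 1.78 CPM untreated, while the 2 uncalled regions of the run had 1.92 ± 2.01 and 2.94 ± 2.02 CPM with T3 and 1.16 ± 0.453 and 2.02 ± 0.810 CPM untreated. Over rara and the replication licensing gene cdc6, 5 of 5 rose and summed to 83.6 CPM with T3 and 6.08 CPM untreated. The nuclear factor I gene nfib had 4 of 4 regions higher, led by 24.1 ± 2.40 CPM with T3 and 0.800 ± 0.320 CPM untreated. Counted by gene and not as a run, its relative nfic had 3 of 3 higher. At spidr, a DNA repair scaffold gene, 5 of 5 regions of the gene rose, 4 of them in a run of 40.7 kb. The strongest had 34.8 ± 3.06 CPM with T3 and 1.39 ± 0.231 untreated. On chromosome 9, from 55526237 to 55588990, a run of 6 of 6 had no gene symbol within 10 kb and summed to 36.7 CPM with T3 and 6.37 CPM untreated. Of 155 genes with a symbol other than a LOC number, at least 2 tested regions and at least 1 riser, 41 had every tested region higher.

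**Figure D3:**
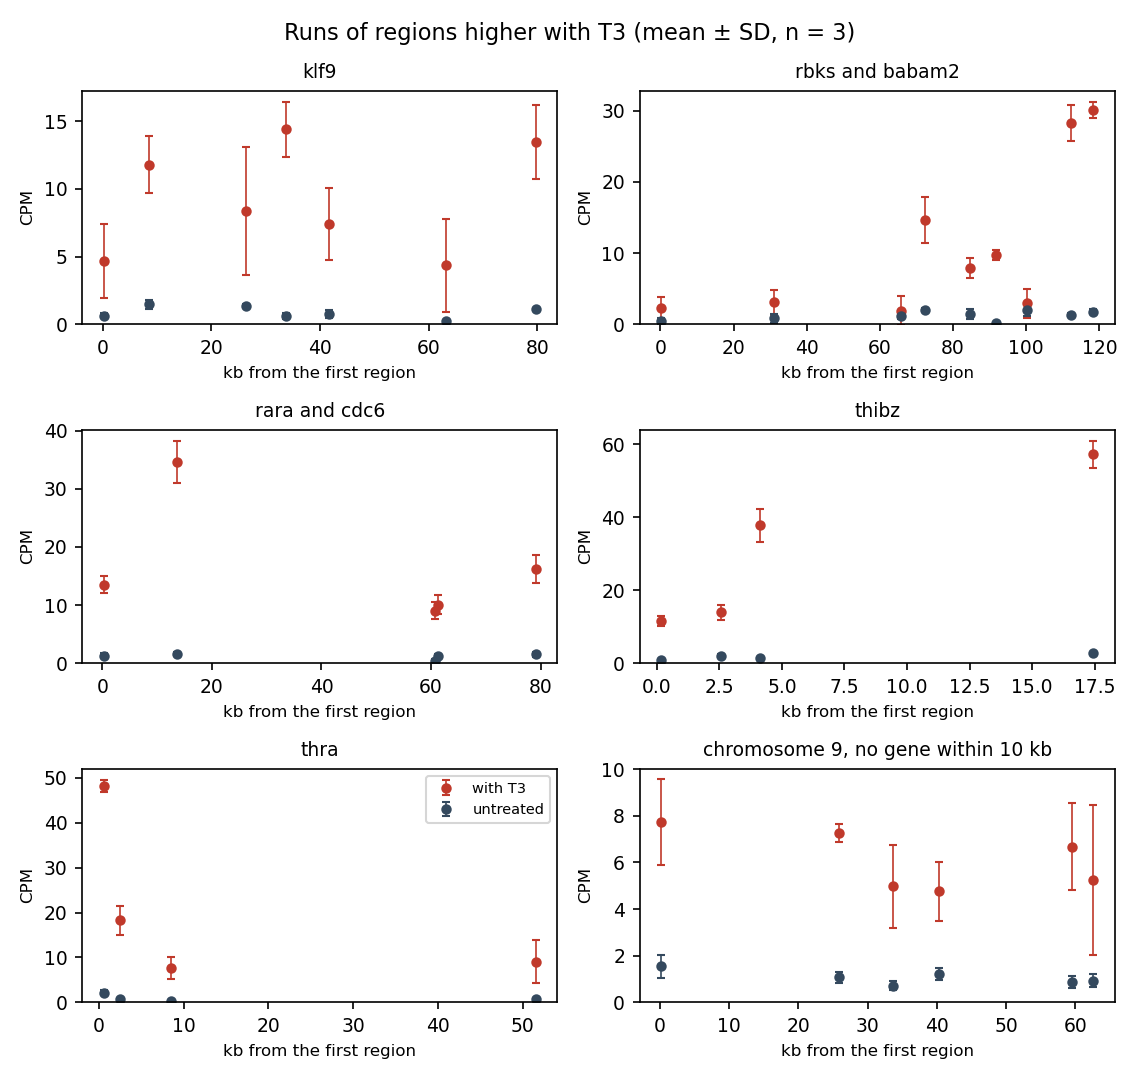
Mean CPM ± SD (n = 3) of each tested region in 6 runs, against distance in kb from the first region of the run, with T3 in red and untreated in dark blue. In the klf9, thibz, thra and rara runs and the run without a gene symbol every T3 mean lies above its untreated mean, and in the rbks and babam2 run the 2 uncalled regions lie close to their untreated levels.

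Gene lists were read against all 6614 tested regions with a gene within 10 kb, of which 11.7% rose and the median log2 change was 0.02. The lists overlap, and some genes hold several regions. Many listed genes had no tested region, so the shares are of regions and not of genes. A tested region was found at 10 of the 50 differentiated gut epithelium genes and 13 of the 20 direct T3 response genes. On the list of direct T3 response genes, which holds several genes named above, 19 of 22 regions rose and none fell, with a median log2 change of 3.50. The list was drawn up with results of these data known. Its 3 uncalled regions were the pair at kdm6b and 1 in fgfr4, a growth factor receptor gene, with 2.60 ± 1.65 CPM with T3 and 1.62 ± 0.505 untreated. Beside the genes above it held sox4, a developmental transcription factor gene, at 26.0 ± 4.88 and 1.15 ± 0.363 CPM, and klf13 at 19.5 ± 1.01 and 1.13 ± 0.102 CPM, with T3 and untreated in that order. The KLF and SP factor list had 4 of 6 higher (median 2.92), from klf9, klf11 and klf13.

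The partners that TR exchanges on hormone binding were themselves among the genes with risers. Corepressor genes had 4 of 6 regions higher and a median log2 change of 3.12. Among them were tbl1x, at 11.2 ± 0.265 and 1.26 ± 0.628 CPM, and sin3a, at 9.21 ± 2.72 and 1.02 ± 0.254 CPM with T3 and untreated, genes of corepressor complex subunits. Coactivator genes had 3 of 7 higher (median 0.71), at the acetyltransferase gene crebbp, the steroid receptor coactivator gene ncoa1 and ppargc1b. The crebbp region had 13.7 ± 3.89 CPM with T3 and 1.03 ± 0.0954 CPM untreated. In the list of hormone transport and deiodinase genes a single region was tested, at the transporter gene slco4a1, and was not called (0.819 ± 0.792 CPM with T3, 2.01 ± 0.378 untreated).

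Other nuclear receptor genes had 6 of 9 regions higher, with a median log2 change of 2.44. Beside rara these were nr3c2, the mineralocorticoid receptor gene, and hnf4a and hnf4b, genes of hepatocyte nuclear factors active in gut epithelium. The nr3c2 region on chromosome 1 at 57297676 had 32.9, 30.8 and 29.7 CPM with T3 and 3.36, 2.28 and 3.24 CPM untreated, again without overlap. Clock genes had 3 of 13 higher and a median of -0.08. They were ciart, a repressor of the clock, with 29.7 ± 1.75 CPM with T3 and 1.79 ± 0.228 untreated, nr1d1, a heme-binding nuclear receptor, with 17.3 ± 1.81 and 1.07 ± 0.596, and per3. The call at per3 was lost without 1 of the 6 libraries.

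Enzymes of chromatin formed several lists with risers. Histone methylation genes had 9 of 28 regions higher and a median log2 change of 0.26. These belonged to dot1l, kdm6b, ehmt1, ezh2, nsd1 and nsd2. The H3K27 methyltransferase gene ezh2 had a pair of regions with 23.1 ± 4.36 and 13.2 ± 1.49 CPM with T3 and 1.26 ± 0.259 and 1.25 ± 0.234 CPM untreated. None of the 5 regions of kdm4b, a histone demethylase gene, was called, with levels of 1.02 to 2.66 CPM with T3 and 1.27 to 3.53 CPM untreated. DNA methylation genes had 4 of 6 higher (median 2.93), the methyltransferase gene dnmt3a (16.5 ± 5.15 and 1.45 ± 0.392 CPM with T3 and untreated), the dioxygenase genes tet2 and tet3, and mbd3. Remodeler genes had 5 of 12 higher (median -0.04), and gatad2a, a NuRD subunit gene, rose most, by 5.08 ± 0.37 on the log2 scale (SE; edgeR, adjusted p = 8.40e-24), to 20.2 ± 3.80 CPM with T3 against 0.566 ± 0.214 untreated.

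**Figure D4:**
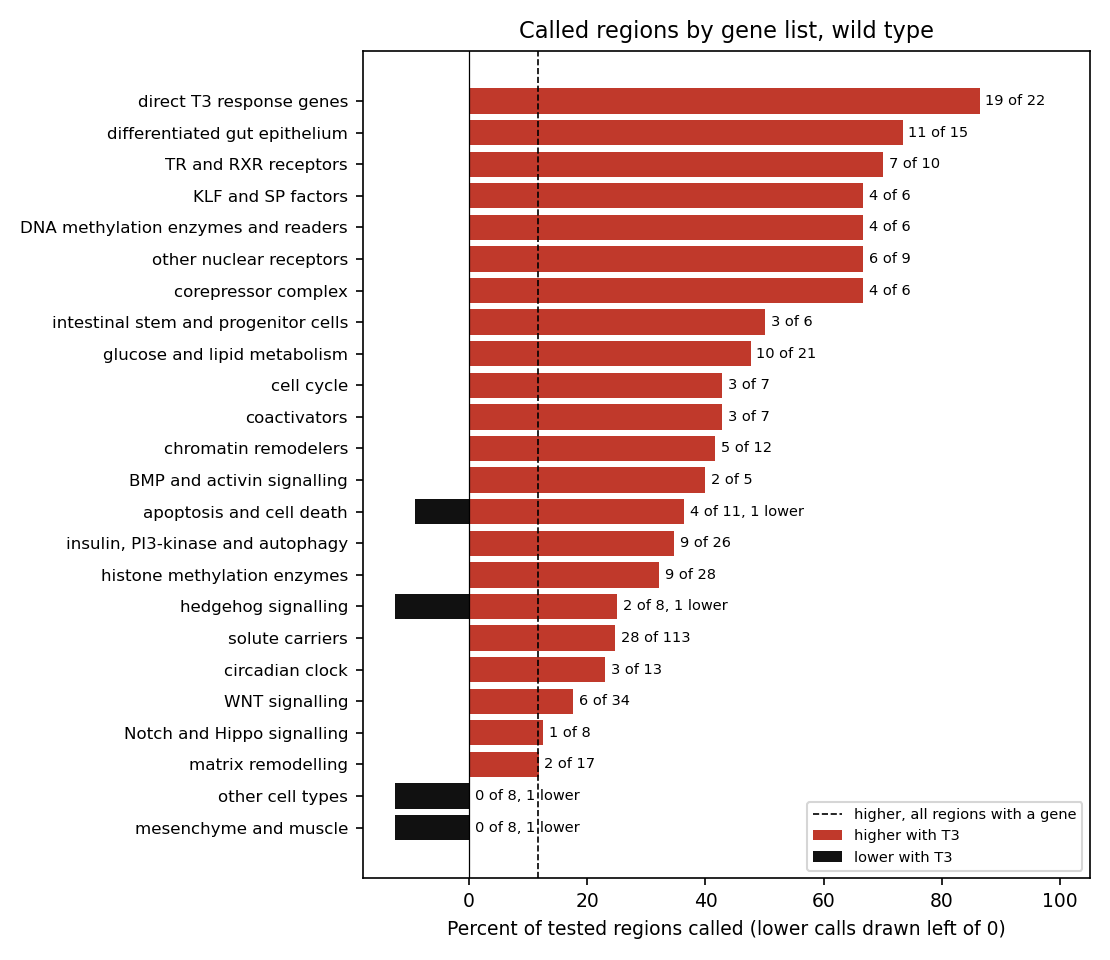
Percent of the tested regions of each gene list (5 or more tested regions) called higher with T3, to the right, and lower, to the left of 0, with counts beside the bars. The dashed line marks the 11.7% called higher among all 6614 regions with a gene. Direct T3 response genes reach 86.4% and differentiated gut epithelium 73.3%. The mesenchyme and other cell type lists have none higher, but with 8 regions each they cannot be told from the 11.7%.

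Epithelial and metabolic genes had many risers. In the differentiated gut epithelium list 11 of 15 regions rose, with a median log2 change of 3.20. The brush-border peptidase gene dpp4 had 14.9, 19.4 and 18.8 CPM with T3 and 0.804, 1.23 and 0.728 CPM untreated, without overlap. Of the 4 regions of gata5, a gut transcription factor gene, 2 rose, with 14.1 ± 1.51 and 11.4 ± 4.48 CPM with T3 and 1.02 ± 0.218 and 0.622 ± 0.239 CPM untreated. At amn, needed for cobalamin uptake, and cdx1, an intestinal homeobox gene, both counted regions rose. Risers also lay at hnf4a, the glucose transporter gene slc2a2 and the villin gene vil1. Glucose and lipid genes had 10 of 21 higher (median 1.32), each in a different gene. The highest were acsl4, an acyl-CoA synthetase gene, at 26.5 ± 1.82 and 1.19 ± 0.0943 CPM, and the aldolase gene aldoa, at 20.6 ± 3.90 and 1.08 ± 0.291 CPM with T3 and untreated. Solute carriers had 28 of 113 regions higher (median 0.03), in 26 genes, led by the monocarboxylate transporter gene slc16a1 at 24.0 ± 2.80 CPM with T3 and 1.0 ± 0.181 CPM untreated.

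Insulin, PI3-kinase and autophagy genes had 9 of 26 regions higher and a median log2 change of 0.26, each in a different gene. The insulin receptor gene insr had 11.6, 15.4 and 17.5 CPM with T3 and 0.658, 0.760 and 0.0809 CPM untreated, and the groups did not overlap. The PI3-kinase subunit gene pik3r1 had 19.0 ± 2.41 and 1.26 ± 0.0798 CPM with T3 and untreated, and the autophagy kinase gene ulk1 18.8 ± 1.86 and 1.25 ± 0.252. Also called were foxo1, foxo3, igfbp1, igfbp5, map1lc3a and ulk2. No region of mtor or rptor was called.

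The WNT, Notch and Hippo, and matrix lists lay nearest to the background. WNT genes had 6 of 34 regions higher and a median log2 change of 0.28. Of these 3 lay in lgr4, an R-spondin receptor gene also on the stem cell list, which had 3 of 6 higher through lgr4 alone. The others were znrf3, a ubiquitin ligase gene that dampens WNT signalling, dvl1 and tcf7l2. The znrf3 region had 30.9, 27.7 and 18.8 CPM with T3 and 0.731, 0.876 and 0.567 CPM untreated. None of the WNT ligand genes with tested regions was called. Hedgehog genes had 2 of 8 higher, the ligand gene ihh (6.91 ± 2.64 and 0.672 ± 0.470 CPM with T3 and untreated) and the co-receptor gene cdon (17.9 ± 2.02 and 1.63 ± 0.609), and 1 lower, gli2. BMP and activin genes had 2 of 5 higher, the receptor genes acvr1b and acvrl1. Notch and Hippo genes had 1 of 8, wwtr1.

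Cell fate lists were mixed. Apoptosis genes had 4 of 11 regions higher and a median log2 change of 0.37, including the death receptor genes fas (7.61 ± 2.67 CPM with T3, 0.229 ± 0.0654 untreated) and tnfrsf10b, which has 2. The survivin gene birc5 had 1 lower. Cell cycle genes had 3 of 7 higher (median 0.64), all at genes of inhibitors or stress response, cdkn1a (16.3 ± 2.16 and 1.30 ± 0.569 CPM with T3 and untreated), gadd45a and gadd45g. Matrix genes had 2 of 17 higher, adam10 and adam9 (median 0.41). No region rose at the 8 of the mesenchyme and muscle list (median -0.14) or the 8 of the nerve, blood, endothelium and immune list (median -0.46), and each had 1 lower, barx1 and tek. With 8 regions a list, none higher cannot be told from the 11.7% of all regions with a gene.

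Regions that fell held very few reads with T3. Their median level was 0.278 CPM with T3 and 2.32 CPM untreated, where all tested regions had 1.80 CPM, and at 66 of the 101 the 3 T3 libraries together held 3 reads or fewer, at 28 none. Over all tested regions the 3 T3 libraries together held a median of 14 reads. The levels of fallers follow in part from selection, since a call for a fall favours low T3 values. The regions were also formed from peaks. Only 24 of the 101 stayed called without each of the 6 wild-type libraries in turn, against 866 of the 956 that rose. The number lower was 161, 173 and 189 without T3 replicates 1 to 3 in turn, and 62 and 66 without untreated replicates 1 and 2. At ppm1g, a protein phosphatase gene, the T3 libraries held 0, 0.791 and 0 CPM and the untreated ones 4.24, 3.74 and 3.64 CPM. That is 2 reads against 167, a ratio per tag of 14.1 (95% counting interval 3.85 to 118; edgeR, adjusted p = 9.58e-05). The region of rgs10, a regulator of G-protein signalling, held 3 reads with T3 and 137 untreated, a ratio of 7.73 (2.59 to 38.0), and that of ube3d 2 and 111, a ratio of 9.40 (2.54 to 78.6). These intervals cover counting error only.

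Several stable fallers with a symbol had no read with T3. At crtc2, a coactivator gene of CREB signalling, untreated libraries had 1.76, 2.04 and 2.19 CPM. Set against an assumed floor of 3 reads over the 3 T3 libraries, the ratio per tag of untreated to T3 was 4.85. Its counting interval reached down to 3.86, so the ratio to the floor is no minimum fold. The same floor gave 4.74 for znf721 and 4.52 for gramd1a (lower limits 3.77 and 3.59). It gave 4.29 for MGC108497 and 4.23 for rbm42 (lower limits 3.40 and 3.36). For prickle2, a planar polarity gene, and for smim28 it gave 3.78 (lower limit 2.99 for each). For trnac-aca, a cysteine tRNA gene, it gave 3.27 (lower limit 2.58). All of these untreated levels were 1.34 to 2.0 CPM. The fallers of the gene lists were less stable, since gli2 and barx1 lost their calls in 5 of the 6 leave-one-out fits and birc5 and tek in 2. The genes mthfd2l and prr5 carried regions in both directions, and both falls lost their call in some of these fits. At mthfd2l, 10.4 ± 3.88 CPM with T3 against 1.13 ± 0.174 untreated stood in the region at 79857786, and 0.268 ± 0.464 against 1.89 ± 0.795 in the one at 79898776.

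A further 255 regions were not called and had a 95% interval of the log2 change within -1 and 1, so a change beyond 2-fold either way lay outside it. They were wide, with a median of 840 bp against 462 bp over all tested regions, and had a median of 4.92 CPM with T3 and 4.73 CPM untreated. Width and level follow in part from the rule, since a narrow interval needs many reads. The untreated libraries together held a median of 204 reads at bounded regions and 78 at all tested regions. Of the 10 regions with a symbol and the highest untreated level, 6 were bounded in this way. The region at jmjd7-pla2g4b had 12.8, 12.6 and 15.3 CPM with T3 and 9.29, 8.94 and 12.3 CPM untreated, that of the threonine tRNA gene trnat-agu 12, 9.88 and 11.4 and 10.8, 9.35 and 8.98. Another region with the symbol trnat-agu was called lower, on 1 read with T3 and 83 untreated. The caution on reads that match several tRNA copies, given for trnal-uag, holds here too. The heca region had 6.02, 12.6 and 10.5 CPM with T3 and 9.14, 8.06 and 8.98 CPM untreated, so its groups overlapped. At qtrt1, a queuine tRNA transferase gene with 3 of these 10 regions, 2 rose by 0.73 ± 0.16 and 0.62 ± 0.21 on the log2 scale (SE; edgeR, adjusted p = 0.000283 and 0.0405), and the second call was lost without 4 of the 6 libraries. The bounded set depended on scaling, because TMM kept 158 of the 255, all tags before the duplicate filter 111 and reads in counted regions 61. The other 8030 tested regions were neither called nor bounded, so whether they changed cannot be said at this depth.

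Peaks, called by the authors in each library, are no independent view, since they come from the same libraries as the counts. At 9824 of the 9867 regions the start equalled the start of a peak in the series. The shares below therefore follow in part from how the regions were formed. Of the regions that rose, 524 (54.8%) had a peak in at least 2 of the 3 T3 libraries and 43 (4.50%) in at least 2 untreated ones. None of the 101 that fell had such a T3 peak and 88 had an untreated one, and of the 255 bounded regions 4 and 237 did. In all, 539 of the 9867 regions had a peak in 2 or more T3 libraries, 4921 in 2 or more untreated ones and 34 in both. With peaks of -log10 q of at least 5, the numbers were 397, 522 and 14. Peak numbers can depend on depth, which differed between the groups as given above, and the part of depth in them was not tested. Where all 3 T3 libraries had a peak, their summits lay within a median of 38.0 bp (322 regions), against 160 bp for the 3 untreated libraries (1126 regions). At risers with a peak in all 3 the medians were 37.0 bp with T3 (317 regions) and 68.0 bp untreated (30 regions).

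The T3 effect in wild type was set against the mean T3 effect of the knockouts within the same fit. The difference was called at 4.22% of regions tested, higher at 337 (3.61%) and lower at 57 (0.61%) (edgeR quasi-likelihood test, Benjamini-Hochberg adjustment). Of the 337, 311 were also called higher in wild type. Their median levels were 14.6 CPM with T3 and 1.03 CPM untreated in wild type, 5.22 and 2.14 CPM in TRαKO, and 11.5 and 2.06 CPM in TRβKO. These levels follow in part from the choice of the regions by this contrast. Over all tested regions the medians were 1.90 and 1.80 CPM in wild type, 2.03 and 1.45 CPM in TRαKO, and 1.48 and 1.61 CPM in TRβKO. With all tags before the duplicate filter as library size the numbers were 214 and 114. Untreated wild-type libraries differed from untreated knockout libraries in more than genotype. They held 12.4 to 17.1 M tags, with 2.2% to 2.97% redundant and fragments of 255 to 283 bp. Untreated knockout libraries held 5.22 to 9.28 M tags, with 10.2% to 14.6% redundant and fragments of 295 to 297 bp. Libraries with T3 differed between genotypes as well. Those of wild type held 2.29 to 2.53 M tags, with 21.4% to 22.4% redundant. Those of TRαKO held 6.03 to 8.02 M tags, with 7.57% to 10.9% redundant. Those of TRβKO held 2.76 to 3.28 M tags, with 15.7% to 16.2% redundant. The part of these differences in the contrast was not tested. At cables2, wild type had 41.3 CPM with T3 and 1.45 untreated, TRαKO 9.89 and 4.51, and TRβKO 18.9 and 3.30, a difference of 2.98 ± 0.32 (log2, SE; edgeR, adjusted p = 1.21e-11). The smallest difference among the 20 risers with a gene symbol and the highest CPM with T3 was at nrep, 1.12 ± 0.24 (edgeR, adjusted p = 0.000803), where TRβKO reached 49.6 CPM with T3 against 48.3 CPM in wild type. Those 20 were chosen by their wild-type values, which favours larger effects in wild type.

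**Figure D5:**
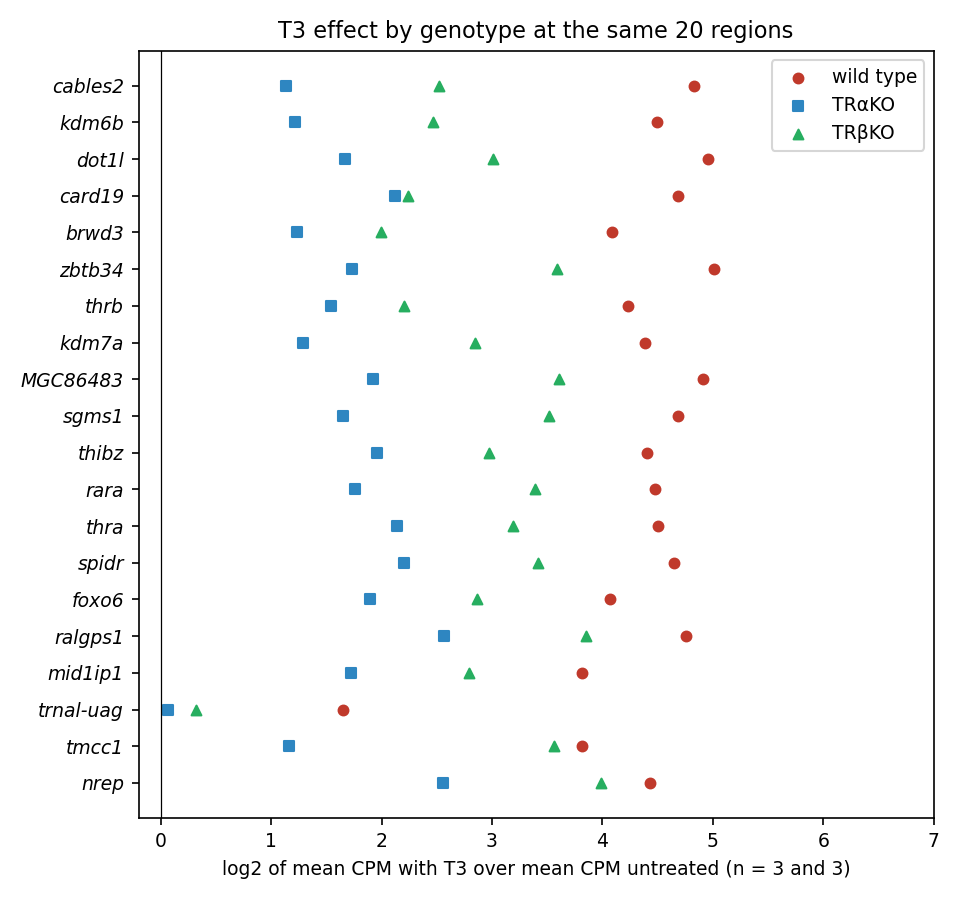
log2 of mean CPM with T3 over mean CPM untreated (horizontal, 3 libraries in each mean) at the 20 regions with a gene symbol of the plot of risers by library, for wild type, TRαKO and TRβKO, ordered by the fitted difference between wild type and the knockouts. Wild type lies to the right of both knockouts in every row, and at trnal-uag, with 64.7 and 61.8 CPM in TRαKO with T3 and untreated, the TRαKO point is near 0. The 20 regions were chosen by their wild-type values, so the place of wild type follows in part from the choice.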

How the data were processed

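Bowtie2 2.3.4.1 served the authors for alignment, MACS2 2.1.1.20160309 for peaks and DiffBind for counts, per the submitters' processing notes. The file headers instead name MACS 2.2.7.1, run on single libraries without a control at a q-value limit of 0.05, with 1 tag kept per position. Raw read counts for 9867 regions make up the deposited count table. The deposited peak lists give pileup signal at the summit, not used in a test here, −log10 p and q, and fold enrichment, the ratio of the summit to local background in that library, per the file headers. The genome build is not given in the sources used here. The count table holds chromosomes as codes, resolved through overlap with the peaks, and 11.4% of regions lay within 1000 bp of a gene end of UCB_Xtro_10.0, against 7.33% to 7.96% after shifts. A region took the name of an overlapping gene body, or otherwise of the nearest gene within 10 kb. Regions farther than that were left without a gene.

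Library size was the number of tags after the duplicate filter, 2.29 to 17.1 M in wild type. edgeR 4.0.16 in R 4.3.3 fitted the counts (robust quasi-likelihood, 6 group means, 18 libraries, filterByExpr, limma 3.58.1), with Benjamini-Hochberg adjustment over 9342 regions and two-sided tests. SEs came from the same fit. The script was tested on simulated data. DESeq2 1.42.0 was an alternative. Python 3.11.15 with pandas 2.3.3, numpy 2.4.6, scipy 1.17.1 and matplotlib 3.10.9 made the summaries. The p-values cover only variation among these libraries, which may be technical.

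Regions named, all with a gene symbol, were the 20 highest with T3 among risers without overlap, up to 12 stable fallers, the 10 highest untreated, 8 bounded, the 10 genes with most risers, genes with both directions, 5 and 5 of the contrast with the knockouts, up to 5 called for each gene list, and thibz, thrb, thra, klf9 and dot1l. Runs and other members named were chosen after their values were seen. Members and lists were chosen with earlier results of these data known. A few members that these rules name are not reported here.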

Additional observations from a re-analysis of the deposited data

Results flagged for a closer look

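The T3 effect in wild type differed from the mean effect in the knockouts by a test of the difference itself (edgeR quasi-likelihood test, adjusted p of 2.59e-07 to 0.0348) at the 9 regions given here, picked for size, with values on the log2 scale.

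The larger effects in wild type were 3.40 at klhl18 and 3.54 at mphosph8, a gene of a heterochromatin reader, where wild type had 12.1 ± 2.0 and 13.4 ± 0.712 CPM with T3 and 0.183 ± 0.106 and 0.322 ± 0.0291 untreated. At pgap3 the difference was 3.94, on 36 reads with T3 and 2 untreated in wild type, a ratio per tag of 106 (95% counting interval 27.4 to 911). At trpm2l it was 4.80 and at galnt18 3.70, but neither was called in wild type, and TRβKO libraries with T3 had 0 reads at both, so the size of these 2 differences depends on how the fit treats 0.

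The smaller effects in wild type were -7.18 at prickle2, -7.23 at MGC108497, -7.23 at clip1 and -7.24 at rbm42. All 4 had 0 reads with T3 in wild type, so these fitted sizes are no measure of fold. The wild-type call at clip1 was lost without 5 of the 6 libraries in turn. Against an assumed floor of 3 reads with T3, the wild-type ratio of untreated to T3 was 3.16 at clip1 and 3.78 to 4.29 at the other 3. The counting intervals of these ratios reached down to 2.49 at clip1 and to 2.99 to 3.40 at the other 3. In the knockouts with T3 the mean levels of these 4 regions were 0.783 to 2.79 CPM. Of the 57 regions lower in this contrast, 33 had 3 reads or fewer with T3 in wild type. The part of depth in these results was not tested.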

How the results depend on the processing

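The number of regions higher with T3 stayed between 880 and 954 under every scaling, filter and tool run, at 901 after every library was thinned to the shallowest (1935 regions then tested), and at 921 to 946 without each wild-type library in turn. The number lower did not hold. Against 101 it was 166 with TMM, 284 with all tags before the duplicate filter, 619 with reads in counted regions, 254 with DESeq2, 12 after thinning and 62 to 189 without each library in turn. Deviations of same-numbered libraries had correlations of 0.0158, 0.00572 and 0.0316, and those of other pairs -0.0242 to 0.0104. Values this small cannot settle at this depth whether the numbers mark pairs. The labels do not say, and the numbers were not taken as pairs. A replicate block gave 920 higher and 58 lower, and 274 and 26 for the contrast with the knockouts. That contrast, 337 higher and 57 lower, gave 214 and 114 with all tags, 198 and 4 after thinning, 449 and 30 with DESeq2, and 256 to 309 higher and 28 to 93 lower in the leave-one-out fits. Of the 57 lower, 7 were also lower with DESeq2 and 0 after thinning. The cause was not tested. Tags in counted regions differed by 0.332 per 100 tags before the duplicate filter instead of 0.912. Regions with an untreated peak in 2 libraries numbered 522 with -log10 q of at least 5 and 1699 to 2753 without 1 library, against 4921. Over gene bodies alone 2 list regions were lower instead of 4. Bounded regions, whose alternatives were chosen after seeing the data, numbered 109 to 157 without 1 library, against 255. A search for response elements with its mismatch and window alternatives was not run, since no genome was used here.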

Other observations

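All 7 counted regions on the mitochondrial chromosome were higher with T3 in wild type, by 1.07 to 2.92 on the log2 scale (edgeR, called under every setting run, where the lowest change was 0.53). Together they took 0.0396 to 0.0427 reads per 100 tags with T3 and 0.0140 to 0.0163 untreated in wild type. In TRαKO they took 0.0250 to 0.0268 and 0.0148 to 0.0150, and in TRβKO 0.0763 to 0.0832 and 0.0216 to 0.0246, so libraries with T3 lay above untreated ones in every genotype. Peaks in wild type did not go the same way throughout. At the region from 109 to 1354, 1 T3 library and 3 untreated ones had a peak. At 13435 these numbers were 0 and 3, and at 15975 they were 1 and 0. No input library was used here, and the part of depth and redundancy in these rises was not tested.

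Among chromosomal regions outside the mitochondrion without a gene symbol other than a LOC number, the riser with the highest CPM lay on chromosome 2 at 4073551 to 4074707, over 10 kb from any gene. It had 72.7, 72.7 and 75.2 CPM with T3 and 2.63, 2.69 and 2.35 CPM untreated, a level with T3 above that of the strongest thibz region in CPM but not per kb. A second, in the body of LOC105945878 on chromosome 3 at 3731583, had 59.7 ± 3.57 CPM with T3 and 2.47 ± 0.893 untreated, and a neighbour in the same gene at 3727551 had 35.9 ± 2.25 and 1.52 ± 0.180. The highest untreated CPM at such regions were at LOC101733468, on chromosome 1 at 212275325, with 31.1 ± 6.65 CPM with T3 and 38.1 ± 1.82 untreated. Next was LOC101731736, on chromosome 10 at 14372, with 41.0 ± 4.24 and 35.8 ± 1.44, and neither region was called. Another region of LOC101731736, at 7172, was called higher, by 0.47 ± 0.14 on the log2 scale (SE; edgeR, adjusted p = 0.0148). That call was lost without 3 of the 6 libraries.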
